A study of Danio rerio with 15 samples.

Results

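The response of zebrafish larvae to a higher against a lower concentration of tefluthrin was measured as RNA abundance per Ensembl transcript. The comparison rests on 6 of the 15 libraries of the study, chosen by their treatment labels: 3 libraries from larvae given tefluthrin at 2.3 µM and 3 from larvae given 60 nM. In both groups, wild-type NHGRI-1 larvae were exposed from 48 to 72 h post fertilisation, whole larvae were pooled, and poly(A) RNA was sequenced. Libraries of the same strain and age left untreated (3), or given acetochlor at 780 nM (3) or 7.8 µM (3), entered neither the test nor the scaling of this comparison and are quoted for levels alone. The file headers of the higher group read nanomolar where the sample labels and the design read micromolar, and the group was taken from the labels.

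Tefluthrin is a pyrethroid insecticide. Pyrethroids bind voltage-gated sodium channels of nerve and muscle and keep them open for longer, so that excitable cells fire repeatedly. Larvae of this age still live on yolk, and their liver, gut and pancreas are taking up their functions. The pooled larva mixes all of these tissues. In such a sample, fewer cells of a type and less RNA per cell cannot be told apart.

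The files name transcripts by identifier only. None of the 64995 identifiers (0) matched the gene tables at hand, so transcripts are described by level, size of difference and direction, without gene names, and the labelled tissue could not be checked against markers. Levels are CPM, counts scaled to a common library size after correction by the trimmed mean of M-values (TMM). CPM is not corrected for transcript length, so abundance classes rank transcripts by their share of reads and not by their number of molecules.

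The libraries held 17354405 to 18940850 estimated counts each, and 39557 to 40330 transcripts were above 0. For a transcript listed at 0, the floor used was 3 counts. It equals 0.152 to 0.174 CPM and covers counting error only. Where reads are divided between transcripts, a 0 can also arise from that division, which the floor does not cover. Folds given as at least a value are therefore bounds in counting alone. No library pair within a group agreed within sampling noise, since the chi-square statistic per degree of freedom was 3.56 to 5.16. Nothing in the labels says that the pools came from separate clutches, so p-values measure the spread between these libraries, which may be partly technical.

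From 1 CPM up, larvae at the higher concentration differed from those at the lower one in transcripts of every abundance class, in both directions. Most transcripts of 1000 CPM or more were higher. Of 31761 transcripts, edgeR's quasi-likelihood test called 6306 (19.9%), the threshold being 0.05 for p adjusted by Benjamini-Hochberg. At 2.3 µM, 3285 of them (10.3% of those tested) were higher and 3021 (9.51%) were lower than at 60 nM. All 6306 had CPM values that did not overlap between the 3 and 3 libraries, and among all transcripts tested the share without overlap was 40.9%.

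Most called differences were modest. The median log2 fold change was 0.59 among transcripts called higher (interquartile range 0.43 to 0.86) and -0.70 among those called lower (-1.04 to -0.48), against -0.01 over all transcripts tested. A difference of less than 0.5 on the log2 scale was found in 36.3% of the higher and 27.1% of the lower calls. A log2 fold change of 1 or more in size was reached by 1417 called transcripts (4.46% of those tested), 606 higher (1.91%) and 811 lower (2.55%). One of 2 or more was reached by 332 (1.05%), 162 higher (0.51%) and 170 lower (0.535%). In 43 of the higher and 40 of the lower calls, 1 group was listed at 0 in all its libraries. These passed the filter on low counts through the other group alone, so their p-values are descriptions. The same holds for calls with few counts, but not 0, in 1 group where the other group alone passed the filter. Their number was not taken. With the 43 and 40 set to their bounds against the floor, the counts at a log2 fold change of at least 1 stayed at 606 and 811. Those of at least 2 were 162 and 169.

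**Figure D1:**
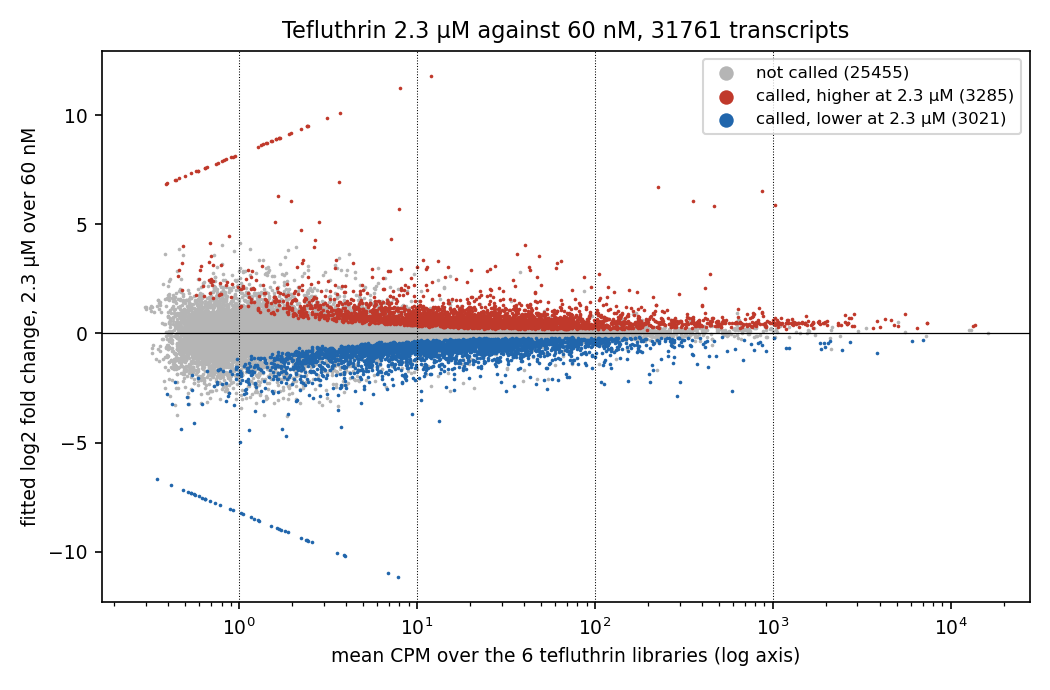
Fitted log2 fold change (2.3 µM over 60 nM) against mean CPM over the 6 libraries (log axis), 1 point per transcript; dotted lines mark the class limits at 1, 10, 100 and 1000 CPM. The straight outer bands hold transcripts listed at 0 in all libraries of 1 group, whose fitted fold depends on a prior count; at 1000 CPM or more the red points outnumber the blue ones, 90 against 14.

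Direction changed with abundance. Classes were set by the mean CPM over the 6 libraries. Under 1 CPM, 105 of 4068 transcripts were called, 54 higher and 51 lower. Of these, 21 of the higher and 18 of the lower had 1 group listed at 0 in all its libraries. Transcripts this scarce can pass the filter on low counts through 1 group alone, so the calls under 1 CPM are descriptions. Between 1 and 10 CPM the called transcripts leaned to the lower side, with 792 higher and 1211 lower among 16239 tested. Between 10 and 100 CPM, 1951 were higher and 1565 lower among 10184, and between 100 and 1000 CPM, 398 were higher and 180 lower among 1136. At 1000 CPM or more, 104 of 134 transcripts were called (77.6%), 90 of them higher and 14 lower.

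Over all transcripts tested, called or not, a gradient ran through every class. Among the calls, the class under 1 CPM fell outside that order. The median log2 fold change was -0.08 in the class under 1 CPM, -0.05 from 1 to 10 CPM, 0.04 from 10 to 100 CPM, 0.14 from 100 to 1000 CPM and 0.43 at 1000 CPM or more. The share called also follows precision, since the median standard error of the log2 fold change was 0.248 in the class from 1 to 10 CPM and 0.0678 at 1000 CPM or more. Transcripts are not independent replicates, and no test was made of the gradient.

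**Figure D2:**
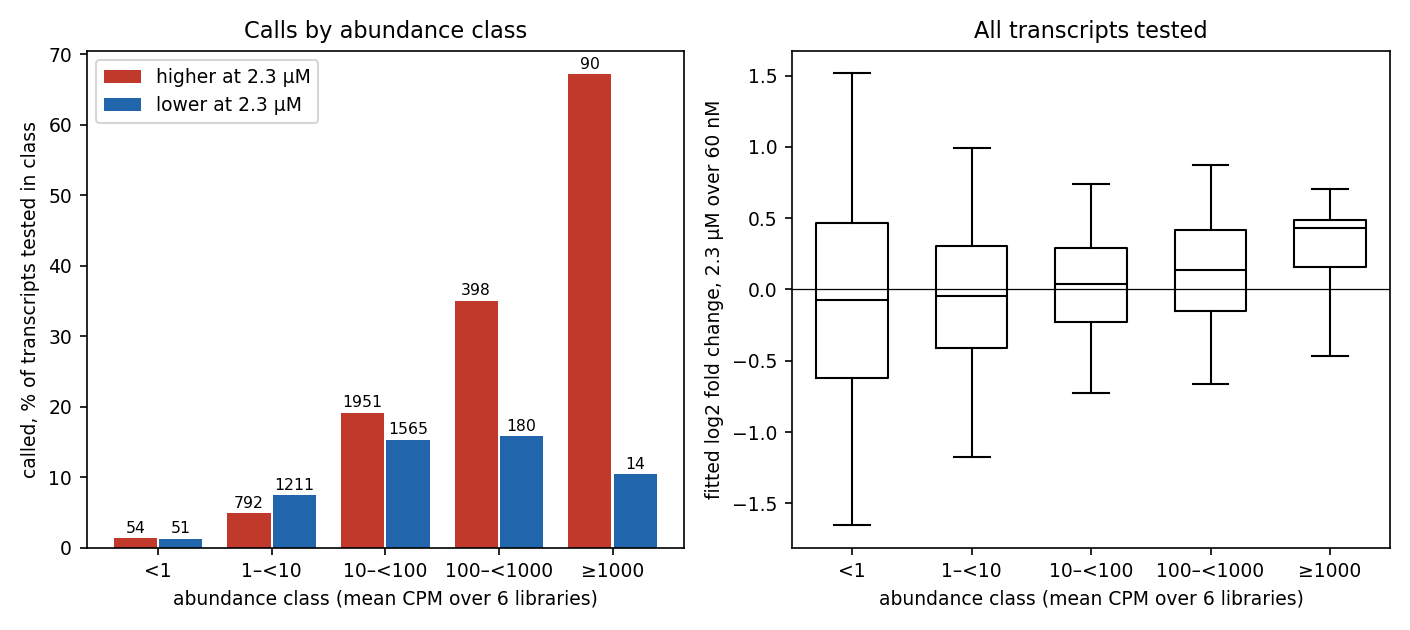
Left, share of the transcripts tested in each abundance class that were called higher (red) or lower (blue) at 2.3 µM, with the number called above each bar. Right, fitted log2 fold change of all transcripts tested, as boxes from quartile to quartile with the median and whiskers from the 5th to the 95th percentile; the median climbs from -0.08 in the lowest class to 0.43 in the highest.

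The split by direction depended on the scaling. TMM factors were 1.05 ± 0.0211 (SD, n = 3) at 60 nM and 0.949 ± 0.0145 at 2.3 µM, and their ranges did not overlap. When libraries were scaled by their totals alone, the median over all transcripts tested moved to -0.16 on the log2 scale, and 1984 transcripts were called higher and 4952 lower. In the classes from 10 to 100 CPM and from 100 to 1000 CPM the majority then turned to the lower side (1094 higher and 2627 lower, and 279 higher and 314 lower). At 1000 CPM or more the majority stayed higher (77 against 18).

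Without any such scaling, the share of all counts held by each class showed where the reads had moved. Transcripts of 1000 CPM or more held 33.1%, 32.2% and 33.5% of the counts in replicates I, II and III at 60 nM and 35.7%, 36.1% and 34.9% at 2.3 µM. Every library at the higher concentration lay above every one at the lower. Transcripts from 10 to 100 CPM held 29.98% ± 0.564 at 60 nM (SD, n = 3) and 27.7% ± 0.484 at 2.3 µM, and those from 1 to 10 CPM held 6.98% ± 0.176 and 6.10% ± 0.0801. The class from 100 to 1000 CPM held 29.5% ± 0.203 and 30.1% ± 0.135, a small difference whose ranges did not overlap. Together the 3285 transcripts called higher held 34.1% ± 0.141 of the counts at 60 nM and 44.5% ± 0.664 at 2.3 µM, and the 3021 called lower held 16.7% ± 0.184 and 9.92% ± 0.465. These last shares describe the calls that defined them.

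The number called also depended on which libraries were used. It was 3455 without 2.3 µM replicate I, 3975 without replicate II and 4977 without replicate III of that group. It was 3632, 3989 and 4122 without 60 nM replicates I, II and III. Fewer libraries leave fewer degrees of freedom, but the counts also differed with the library left out, and the cause was not tested. Between 88.3% and 94.9% of the calls made without a library were also made with all 6. Without 2.3 µM replicate III, lower calls outnumbered higher ones (2521 against 2456).

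**Figure D3:**
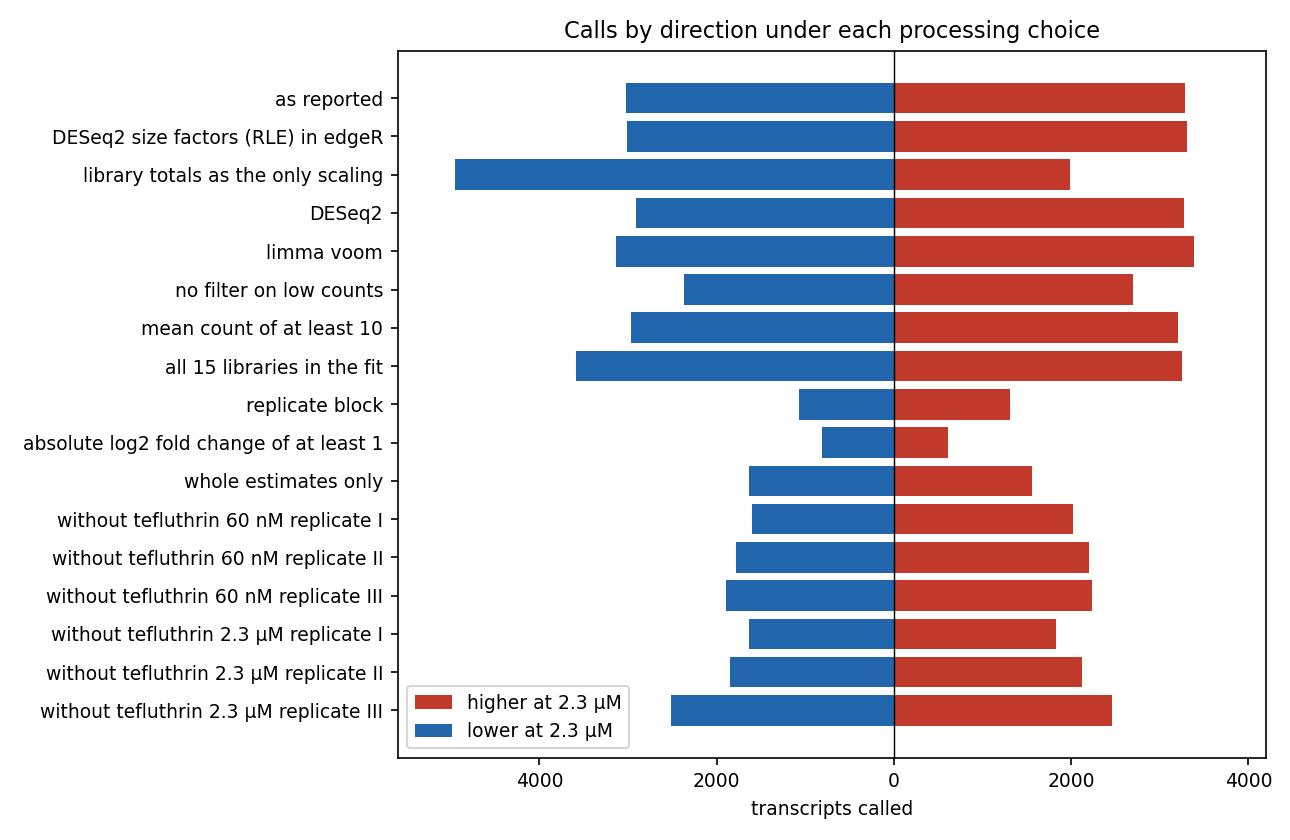
Number of transcripts called higher (red, to the right) and lower (blue, to the left) at 2.3 µM under each processing choice, with the reported fit at the top. The split leans to the lower side with library totals as the only scaling (1984 higher, 4952 lower), with all 15 libraries in the fit (3255, 3592), with whole estimates only (1563, 1632), with a log2 fold change of at least 1 (606, 811) and without 2.3 µM replicate III.

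The 6 libraries parted by concentration on the first principal component of log2 CPM, which held 33.7% of the variance. Libraries at 60 nM lay between -70.3 and -68.6 on it. Those at 2.3 µM were spread more widely on it, with replicate I at 84.2, replicate II at 71.5 and replicate III at 52.3. On the second component, with 17.8% of the variance, both groups were spread. Replicates I to III lay at -30.5, -28.5 and 70.5 at 60 nM and at 10.9, 53.8 and -76.2 at 2.3 µM. The root mean square difference in log2 CPM was 0.923 to 0.975 between libraries of the same group and 1.06 to 1.14 between groups.

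The response of single libraries was read from transcripts called without the library in question. At 2.3 µM, replicate I differed from the 60 nM libraries by a median of 1.09 times the difference of the other 2 libraries of its group (3455 transcripts), replicate II by 0.904 times (3975) and replicate III by 0.821 times (4977). At 60 nM the ratios were 0.982, 0.911 and 0.936. Each left-out library lay on the same side as its group in 97.8% to 98.6% of these transcripts. The libraries of the other group are shared between the values compared and also served in the calls, which favours the same side. The share on the same side was not taken over all transcripts tested. The transcripts were called with the other 2 libraries of the group, so the difference of those libraries was chosen for being large. This choice tends to lower the ratios, and a low ratio need not mean a weaker response.

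**Figure D4:**
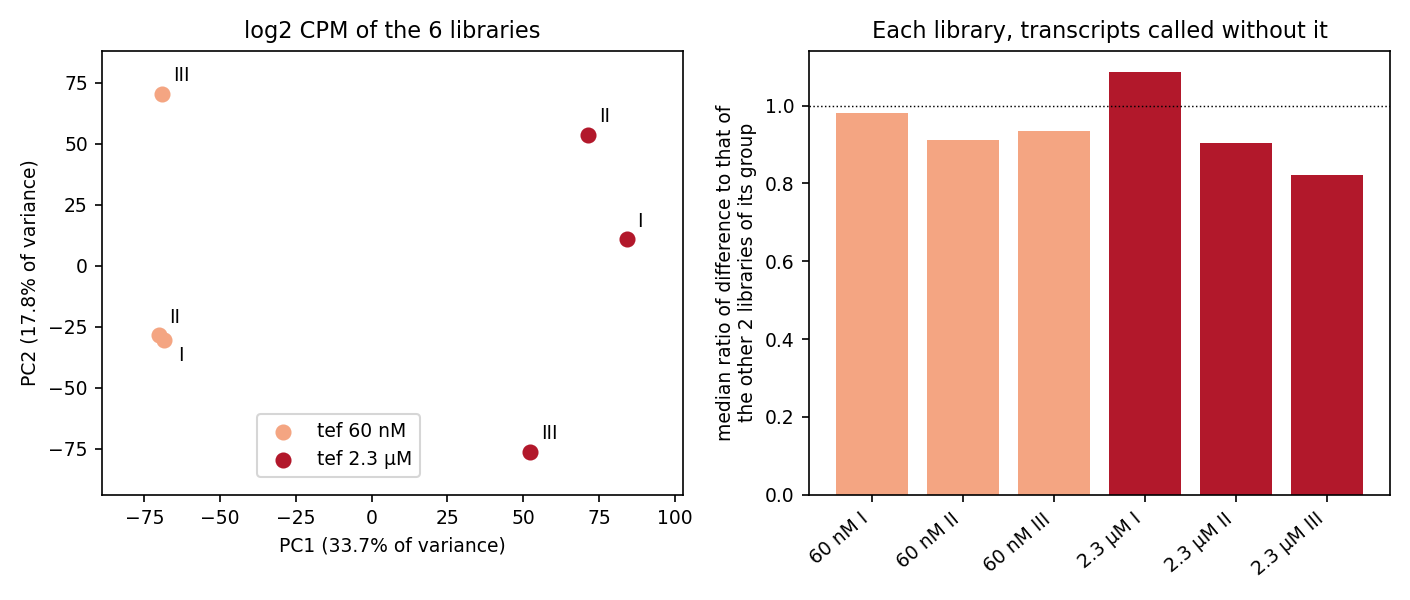
Left, the 6 libraries on the first 2 principal components of log2 CPM; the concentrations part on the first, with 2.3 µM replicate III nearest to the 60 nM libraries. Right, for each library, the median ratio of its difference from the other concentration to that of the other 2 libraries of its group, over transcripts called without it; ratios run from 0.821 to 1.09.

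An estimate with decimals arises where reads are divided between transcripts. Of 8058 tested transcripts with whole estimates in all 6 libraries, 2035 (25.3%) were called, 1004 higher and 1031 lower. Of 23703 with a fractional estimate, 4271 (18.0%) were called, 2281 higher and 1990 lower. These counts depend on the fit, since the same 8058 transcripts fitted alone gave 3195 calls, 1563 higher and 1632 lower, of which 2035 were also called in the fit of all transcripts. From 1 to 10 CPM the median coefficient of variation between replicates at 60 nM was 12.2% for whole and 19.8% for fractional estimates, and from 100 to 1000 CPM it was 4.70% and 6.15%. At 2.3 µM these values were 13.1% and 20.8%, and 5.08% and 5.93%. Fractional estimates had the larger median variation in both groups in these 2 classes. At 1000 CPM or more the order was the reverse, with 5.21% for whole and 5.14% for fractional estimates at 60 nM and 5.602% and 5.38% at 2.3 µM. In what follows, a transcript with fractional estimates is marked as such, since its level can be set by how reads were divided.

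Among transcripts with whole estimates, ENSDART00000055428.4 was called higher with the smallest p-value. It stood at 63.3, 64.7 and 61.8 CPM in the 60 nM replicates I to III and at 271, 226 and 247 CPM at 2.3 µM. The lowest library at the higher concentration was far above the highest at the lower one. It was 1.97 higher on the log2 scale (SE 0.0793, edgeR adjusted p = 0.00043). Untreated larvae had 5.62, 4.95 and 7.68 CPM, so this transcript climbed in steps from untreated to 60 nM to 2.3 µM with no overlap at either step. At acetochlor 7.8 µM it was at 18.6, 24.4 and 9.42 CPM.

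ENSDART00000043743.7, also with whole estimates, had 9.94, 11.1 and 11.3 CPM at 60 nM and 53.2, 56.0 and 66.0 CPM at 2.3 µM. It rose 5.42-fold (log2 fold change 2.44, SE 0.106, edgeR adjusted p = 0.000488). Untreated larvae had 6.09 ± 0.750 CPM (SD, n = 3), below 60 nM without overlap, and the larger step in CPM lay between the tefluthrin concentrations.

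ENSDART00000033691.3 was called lower with the smallest p-value among transcripts with whole estimates. It had 27.2, 22.8 and 25.3 CPM at 60 nM and 1.53, 1.86 and 1.28 CPM at 2.3 µM, and fell by 4.01 on the log2 scale (SE 0.154, edgeR adjusted p = 0.00043). In untreated larvae it had 1.12, 1.39 and 1.42 CPM. The transcript was therefore high in the 60 nM libraries alone among these 9, and the range at 2.3 µM overlapped that of untreated larvae.

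ENSDART00000085522.6 had 39.9, 37.7 and 42.6 CPM at 60 nM and 14.3, 15.4 and 15.2 CPM at 2.3 µM (log2 fold change -1.42, SE 0.0728, edgeR adjusted p = 0.000647). Untreated larvae had 6.79 ± 0.337 CPM. It was lower at 2.3 µM than at 60 nM, and both tefluthrin groups lay above untreated larvae without overlap.

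The transcripts with the smallest p-values in each direction had fractional estimates. That called higher went from 5.77 ± 0.509 CPM at 60 nM to 49.1 ± 3.84 CPM at 2.3 µM (SD, n = 3). It rose by 3.09 on the log2 scale (SE 0.0991, edgeR adjusted p = 0.00043), with 3.30 ± 0.361 CPM in untreated larvae. That called lower went from 91.7 ± 8.46 to 15.7 ± 1.20 CPM (log2 fold change -2.55, SE 0.0965, edgeR adjusted p = 0.00043), with 21.5 ± 1.13 CPM in untreated larvae.

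Large rises also occurred among transcripts with a mean of 100 CPM or more over the 6 libraries. Of these, 5 differed by 5 or more on the log2 scale, a limit chosen after the values were seen. The 2.3 µM libraries put them in these classes, since their means at 60 nM were 4.35 to 35.0 CPM. All 5 were higher at 2.3 µM, and all had fractional estimates. The largest stood at 4.31, 6.51 and 2.23 CPM at 60 nM and at 513, 332 and 509 CPM at 2.3 µM (log2 fold change 6.70, SE 0.388, edgeR adjusted p = 0.000818). The next stood at 21.7, 21.7 and 13.1 CPM and at 2004, 1229 and 1926 CPM (log2 fold change 6.51, SE 0.313, edgeR adjusted p = 0.000582). Another 2 of these transcripts rose from 10.5 ± 1.41 to 701 ± 171 CPM and from 16.1 ± 4.75 to 925 ± 230 CPM (SD, n = 3).

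These 4 transcripts shared a pattern over the libraries. In each, replicate II was the lowest at 2.3 µM and replicate III the lowest at 60 nM. Untreated larvae had 2.23 ± 0.658 CPM of the first, 9.66 ± 0.902 of the second, 7.73 ± 1.36 of the next and 8.91 ± 1.69 of the last, so that all 4 were scarce without tefluthrin. Whether they divide the same reads was not tested.

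The remaining transcript of the 5, at 1000 CPM or more, was erratic. It had 4.51, 100.5 and 0 CPM at 60 nM and 1673, 1960 and 2430 CPM at 2.3 µM, but in untreated larvae it ran from 0 to 1947 CPM. Its adjusted p was 0.0485 in edgeR, 0.0125 with limma voom and 0.0546 with all 15 libraries in the fit, and it lost its call in 9 of 15 alternatives.

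**Figure D5:**
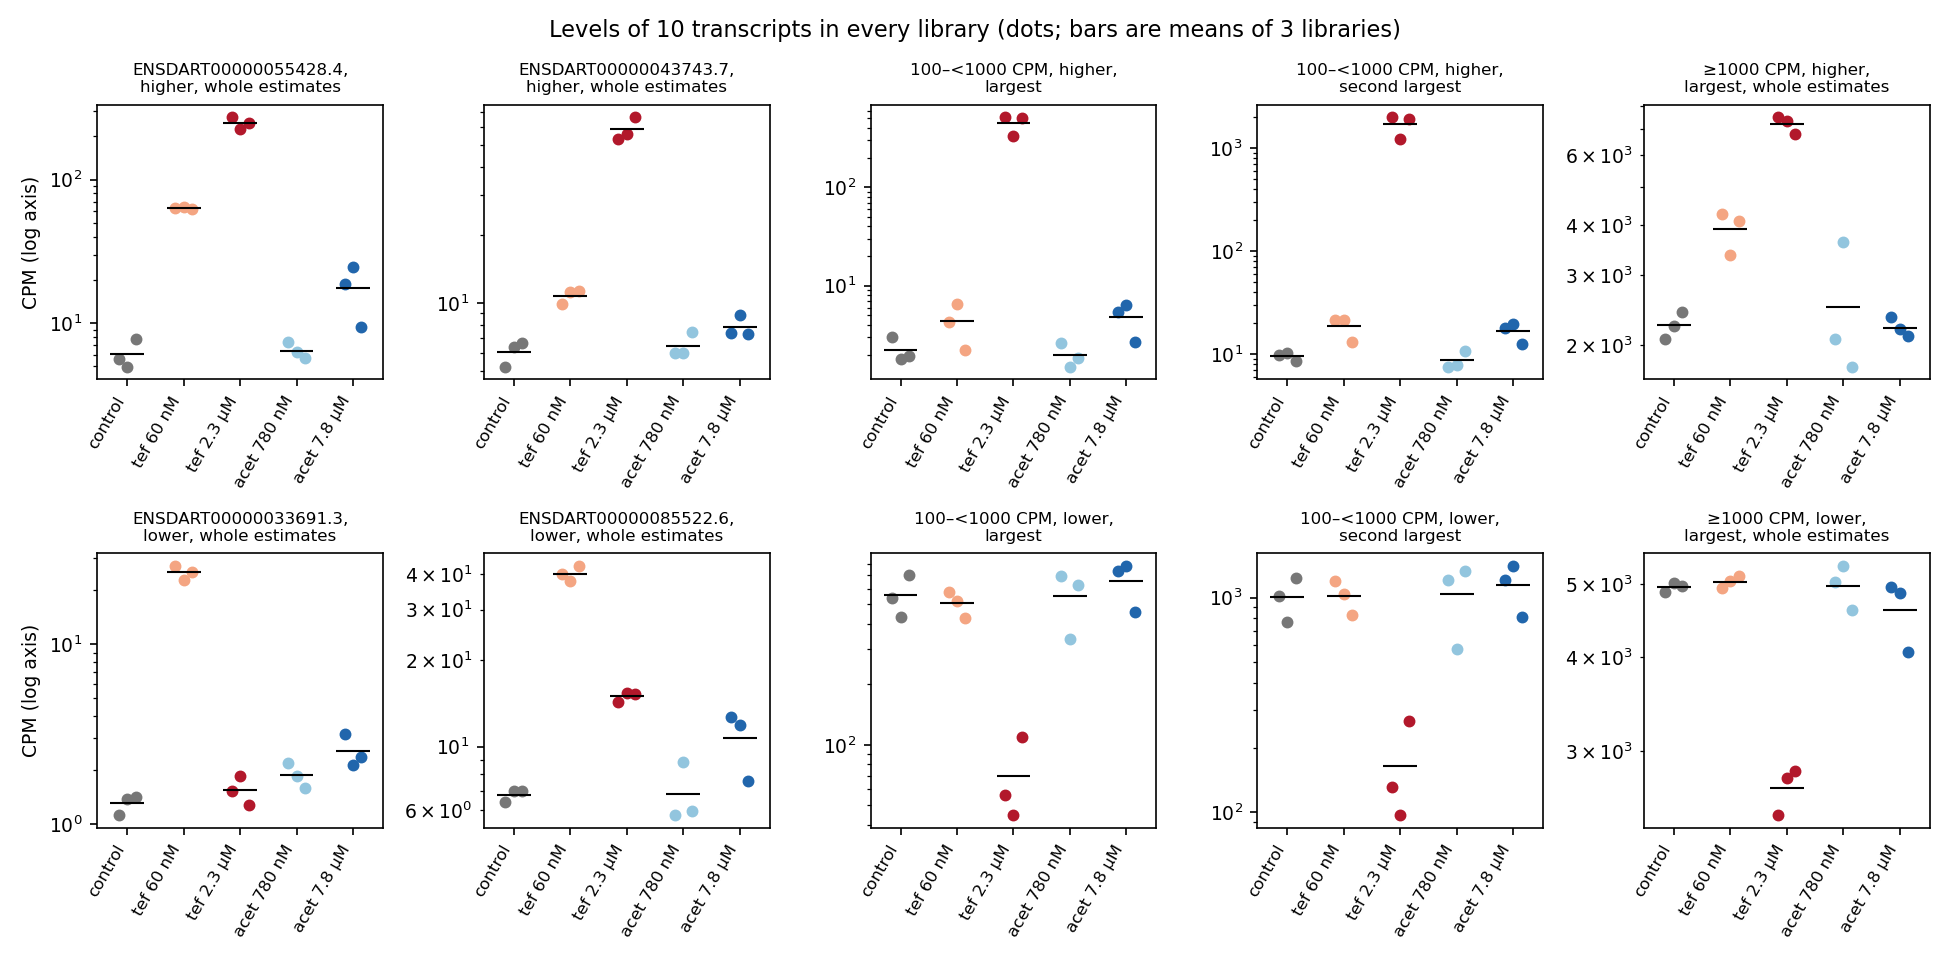
CPM (log axis) of 10 transcripts in each of the 15 libraries, as dots by group with the mean as a bar; the upper row was called higher and the lower row lower at tefluthrin 2.3 µM than at 60 nM. In each panel the 3 libraries at 2.3 µM lie clear of the 3 at 60 nM, which the choice of transcripts required. Untreated larvae lie near 60 nM in some panels and near 2.3 µM in that of ENSDART00000033691.3.

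With whole estimates, the largest rise from 100 to 1000 CPM was that of a transcript at 27.5 ± 3.74 CPM at 60 nM and 184 ± 17.01 CPM at 2.3 µM (SD, n = 3). It rose by 2.74 on the log2 scale (SE 0.121, edgeR adjusted p = 0.000488). Untreated larvae had 9.53 ± 0.0808 CPM of it. From 10 to 100 CPM the largest rises with whole estimates were from 6.06 ± 2.23 to 43.7 ± 9.06 CPM and from 4.94 ± 0.327 to 28.1 ± 2.97 CPM. With fractional estimates, a transcript of the same class rose from 4.64 ± 1.15 to 76.8 ± 7.44 CPM (log2 fold change 4.05, SE 0.175, edgeR adjusted p = 0.000488). The last 3 were scarce in untreated larvae too, with means of 3.11 to 7.53 CPM.

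From 100 to 1000 CPM, the 2 largest falls and the next largest with whole estimates had the same order of libraries. The first, with fractional estimates, had 574, 522 and 427 CPM at 60 nM and 56.0, 44.5 and 110 CPM at 2.3 µM (log2 fold change -2.86, SE 0.348, edgeR adjusted p = 0.00385). The second, with whole estimates, had 1190, 1038 and 830 CPM and then 131, 96.8 and 266 CPM (log2 fold change -2.63, SE 0.387, edgeR adjusted p = 0.00655). The last, with whole estimates, had 589, 478 and 422 CPM and then 91.6, 76.2 and 155 CPM (log2 fold change -2.21, SE 0.282, edgeR adjusted p = 0.00432).

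In all 3, replicate III was the highest library at 2.3 µM and the lowest at 60 nM. No library of one group reached the other, which the choice of transcripts required. Untreated larvae had 557 ± 138, 1008 ± 234 and 462 ± 83.1 CPM (SD, n = 3), overlapping 60 nM in each case. They were thus lower at 2.3 µM than in either of the other groups.

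From 10 to 100 CPM the largest falls were those of ENSDART00000033691.3 and of a transcript with whole estimates that had 29.4, 13.02 and 14.1 CPM at 60 nM and 1.02, 1.69 and 4.12 CPM at 2.3 µM (log2 fold change -3.04, SE 0.558, edgeR adjusted p = 0.0133). The latter lost its call without 2.3 µM replicate II (edgeR adjusted p = 0.0556). It also lost it with the replicate numbers as a block in the fit (edgeR adjusted p = 0.0665).

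At 1000 CPM or more, 1 called transcript, the erratic one above, passed a log2 fold change of 1 in size. The 90 higher transcripts had a median log2 fold change of 0.47 with an interquartile range of 0.42 to 0.52, and 69 of the 104 called lay between 0.3 and 0.6. With whole estimates, the largest rise was from 4269, 3371 and 4108 CPM to 7476, 7330 and 6784 CPM (log2 fold change 0.88, SE 0.0966, edgeR adjusted p = 0.00304). Another with whole estimates rose from 1124 ± 58.7 to 1965 ± 102 CPM (log2 fold change 0.81, SE 0.0635, edgeR adjusted p = 0.00157). Both were lower in untreated larvae, at 2240 ± 173 and 821 ± 21.1 CPM. Apart from the erratic transcript above, the largest rise with fractional estimates was from 1771, 2217 and 2084 CPM to 4050, 3331 and 3854 CPM (log2 fold change 0.89, edgeR adjusted p = 0.00385).

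The largest fall at this level, with whole estimates, was from 4935, 5045 and 5131 CPM to 2468, 2766 and 2823 CPM (log2 fold change -0.91, SE 0.0623, edgeR adjusted p = 0.00117). Untreated larvae, at 4957 ± 70.9 CPM (SD, n = 3), were close to 60 nM. Another with whole estimates fell from 2331 ± 138 to 1426 ± 80.6 CPM (log2 fold change -0.71, SE 0.0674, edgeR adjusted p = 0.00221). A transcript with fractional estimates fell from 3119 ± 154 to 1811 ± 356 CPM (log2 fold change -0.78, SE 0.136, edgeR adjusted p = 0.0111), and its adjusted p was 0.051 without 2.3 µM replicate I.

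Among the 20 most abundant transcripts, 11 were called higher and 3 lower, and 6 were not called. The shares called were 10.3% higher and 9.51% lower over all transcripts tested, and 67.2% and 10.4% in the class of 1000 CPM or more. The 3 called lower had whole estimates, as had 1 of the 11 called higher.

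From 1 to 10 CPM the largest differences were between presence and absence. The 2 largest rises were of transcripts listed at 0 in all 3 libraries at 60 nM, with 21.8, 16.0 and 10.7 CPM and with 10.6, 7.44 and 4.12 CPM at 2.3 µM, at least 100.01-fold and at least 45.7-fold higher when set against the highest floor of a 60 nM library, 0.161 CPM. Both had fractional estimates, and limma voom gave adjusted p of 0.0965 and 0.13. Neither was called with all 15 libraries in the edgeR fit (adjusted p = 0.0582 and 0.0599). One of them was listed at 0 in all untreated libraries and the other in 1 of the 3. A transcript from 10 to 100 CPM, with fractional estimates, was likewise at 0 at 60 nM, with 15.8, 28.5 and 28.1 CPM at 2.3 µM. It was at least 149.5-fold higher (adjusted p = 0.0942 with limma voom and 0.07 with all 15 libraries in the edgeR fit). Zeros also occurred within other groups, with 19.1, 0 and 0 CPM in untreated larvae and 16.5, 9.12 and 0 CPM at acetochlor 7.8 µM.

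The 2 largest falls from 1 to 10 CPM, also with fractional estimates, were of transcripts listed at 0 at 2.3 µM, with 20.1, 4.74 and 22.2 CPM and with 8.17, 19.1 and 14.0 CPM at 60 nM (limma voom adjusted p = 0.441 and 0.151). The latter was not called with all 15 libraries in the edgeR fit either (adjusted p = 0.132). A transcript with whole estimates had 3.09, 3.82 and 3.17 CPM at 60 nM and was at 0 at 2.3 µM. It was at least 19.3-fold lower against the highest floor at 2.3 µM of 0.174 CPM. It passed the filter on low counts through the 60 nM libraries alone, so its edgeR adjusted p of 0.00221 is a description. It was listed at 0 in the 3 untreated and the 6 acetochlor libraries as well, so that the 60 nM libraries alone held it.

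The 2 largest rises with whole estimates in this class were less even. One had 0.152, 0.161 and 0.156 CPM at 60 nM, which is 3 counts in each library, the floor itself, and 7.07, 3.08 and 2.84 CPM at 2.3 µM. It passed the filter on low counts through the 2.3 µM libraries alone. The other had 0.399 ± 0.127 CPM and then 6.84, 2.85 and 2.89 CPM. It too needed the 2.3 µM libraries to pass this filter. In both, replicate I was well above the others at 2.3 µM, and limma voom gave adjusted p of 0.198 and 0.109 against 0.00272 and 0.00611 in edgeR. The second largest fall with whole estimates was from 11.5, 5.87 and 4.21 CPM to 0.170, 0.233 and 0.667 CPM. Its adjusted p was 0.00587 in edgeR and 0.178 with limma voom. With so few counts in 1 group of each transcript in this paragraph, their p-values are descriptions.

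Over the whole comparison, 24 transcripts had at least 30 counts in each 2.3 µM library and at most 3 in each 60 nM library, and 19 had the reverse. Each set held 1 transcript with whole estimates. Of the 24, untreated larvae had at least 30 counts in each library for 4 and at most 3 in each for 5. Of the 19 these numbers were 6 and 2. For the other 15 and 11, the untreated libraries fell on neither side or differed among themselves.

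The levels of untreated larvae were set beside the called differences, as a description, by whether the range of the 3 untreated libraries overlapped that of a tefluthrin group. Of the 606 transcripts higher at 2.3 µM by 1 or more on the log2 scale, untreated larvae overlapped 60 nM alone in 285 and lay beyond it, farther from 2.3 µM, in 190. They fell between the groups in 57, overlapped or lay beyond 2.3 µM in 45 and overlapped both in 29. Of the 811 lower transcripts, untreated larvae overlapped 60 nM alone in 325 and lay beyond it in 63. They fell between the groups in 140 and overlapped both in 59. In 224 (27.6%) they overlapped 2.3 µM alone (147) or lay beyond it, farther from 60 nM (77). ENSDART00000033691.3 was among those that overlapped, higher at 60 nM than in untreated larvae and within reach of them at 2.3 µM. ENSDART00000085522.6 was among those beyond, where both tefluthrin groups lay above untreated larvae. Either place was taken in 45 (7.43%) of the higher transcripts, and the difference between the directions was not tested. Over all calls of any size either was taken in 839 of 3021 lower (27.8%) and 481 of 3285 higher transcripts (14.6%). Among all 31761 transcripts tested, whose tefluthrin groups mostly overlapped, untreated larvae overlapped 60 nM alone in 22.8%, lay beyond it in 15.7%, fell between the groups in 2.74%, overlapped 2.3 µM alone in 11.6%, lay beyond it in 8.17% and overlapped both in 38.9%.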

How the data were processed

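Per the submitters' processing notes, FastQC, MultiQC, Salmon 1.6.0 and the build GRCz11 were used; their settings and the annotation release are not given in the sources used here. Per the file headers and values, the authors deposited 1 estimated count per transcript and library, not scaled for depth. Identifiers matched neither gene table, so counts were not summed per gene, gene lists and tissue markers could not be used, and at most 2 identifiers in each direction are printed.

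Estimated counts of the 6 libraries were rounded. In edgeR 4.0.16 (R 4.3.3), filterByExpr left 31761 transcripts holding at least 99.6% of each library's counts. A transcript can pass this filter through 1 group alone. Scaling was by TMM, the model held group only, and tests were quasi-likelihood, two-sided and adjusted by Benjamini-Hochberg over all transcripts tested. The standard error is the log2 fold change divided by the square root of F. log2 CPM used a prior count of 2. Untreated and acetochlor libraries were scaled by TMM over 15 libraries and brought to the same scale, to within 0.839%. An estimate within 0.0005 of a whole number was taken as whole.

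Transcripts described were, per class from 1 CPM and direction, the 2 with the largest absolute log2 fold change among called, non-overlapping ones, and the 2 largest with whole estimates; in addition the smallest p in each direction. Identifiers printed are the 2 with the smallest p in each direction with whole estimates. The comparison, lists and tests were chosen with earlier results of these data known. Alternatives were DESeq2 1.42.0, limma 3.58.1 (voom), other scalings and filters, 15 libraries, a replicate block, and each library left out. The model was tested on simulated data. Figures used matplotlib 3.10.9.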

Additional observations from a re-analysis of the deposited data

How the results depend on the processing

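The count of 6306 called transcripts (3285 higher, 3021 lower) stayed within 1.5 times with DESeq2's size factors, DESeq2, limma voom, no filter, a mean count of at least 10, and all 15 libraries in the fit (5069 to 6847). With library totals as the only scaling it was 6936, with 1984 higher and 4952 lower. A log2 fold change of at least 1 left 1417 (606 and 811), by construction. Fitting the 8058 whole estimates alone gave 3195 (1563 and 1632), against 2035 of the same transcripts in the reported fit. Leaving out 1 library gave 3455 to 4977 calls, 1825 to 2456 higher and 1607 to 2521 lower. Same-numbered libraries did not deviate together from their group means (r = -0.0119, -0.0247 and -0.0351), and no library correlated best with its own number, so the numbers were not taken to pair libraries. With the replicate block, 2381 were called (1307 and 1074). No call shared with the reported fit changed sign in any alternative (0). All alternatives share libraries with that fit, so a change of sign in a shared call was unlikely from the start. For the 32 transcripts described, 468 of 498 values kept call and direction, 30 lost the call and 0 reversed. Of 160 counts by class and direction, 63 moved by over 1.5 times. The cause of these moves was not tested. Under 1 CPM, where the median standard error was 0.587, limma voom called 17 higher and 11 lower against 54 and 51 in edgeR.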

Other observations

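A set of abundant transcripts with neighbouring identifiers was mostly lower at 2.3 µM. It was noticed after the values were seen, and the files do not name the genes. All 7 transcripts of 1000 CPM or more that had whole estimates and were called lower have identifier numbers from 93596 to 93625, a run of 30 numbers. The files hold 13 transcripts in this run, each with whole estimates. Of the 6 that did not define the run, 4 were called lower, with log2 fold changes down to -0.98, and 0 were called higher. Among all transcripts tested, 9.51% were called lower and 10.3% higher. The others of the 6 were at -0.10 and 0.02 and not called. With mean levels of 7280 and 16155 CPM, they were the 2 most abundant transcripts of the run. The 13 transcripts together held 5.80%, 5.52% and 5.97% of all counts in the 60 nM replicates I to III and 4.15%, 4.43% and 4.45% at 2.3 µM, with no overlap. They held 5.66% ± 0.0482 in untreated larvae (SD, n = 3), 5.88% ± 0.361 at acetochlor 780 nM and 5.62% ± 0.288 at acetochlor 7.8 µM. Scaled by TMM, their summed CPM was 54913 ± 3229 at 60 nM and 45923 ± 1347 at 2.3 µM, a smaller relative fall. It was 54454 ± 1639 in untreated larvae, 56382 ± 5746 at acetochlor 780 nM and 51654 ± 3672 at acetochlor 7.8 µM. The 7 that define the run were picked for being lower, so the summed share and the summed CPM are descriptions.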
